A study of Homo sapiens with 16 samples.

Results

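The acute phase plasma proteins studied here are the products of 10 genes, CRP, SAA1, SAA2, SAA4, ORM1, ORM2, SERPINA1, SERPINA3, LBP and ITIH4. They were chosen by name from the deposited expression table of 26258 genes, and all 10 were found by gene ID. Their RNA was followed in 16 libraries of the human hepatocellular carcinoma (HCC) lines Huh7 and Hep3B, in 8 groups with 2 replicates each. Every line was represented by parental cells, by cells labeled DMSO (a common drug solvent), by cells raised in stepwise increasing Sorafenib (IR) and by cells kept in a steadily high concentration (CR). Sorafenib is a multikinase inhibitor given for advanced HCC. The labels of the IR and CR libraries carry 7 μM Sorafenib, so a comparison with parental cells holds the presence of the drug as well as resistance to it. The IR and CR comparisons of a line also share the same parental libraries. The methods of the study speak of biological replicates, while the labels name no separate cultures, so p-values measure the spread between these libraries, part of which may be technical.

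The acute phase response is the change in the plasma proteins that hepatocytes secrete during infection, injury or cancer. IL6-type cytokines act through the receptor subunit gp130 (IL6ST), JAK kinases and STAT3, while IL1 and TNF act through NF-kB, and C/EBP and other liver factors maintain the hepatocyte program on which these signals work. CRP, SAA1 and SAA2 rise most steeply in plasma. SAA4 is the constitutive serum amyloid A of high-density lipoprotein, the orosomucoids ORM1 and ORM2 bind drugs and lipids, SERPINA1 and SERPINA3 inhibit neutrophil proteases, LBP hands lipopolysaccharide to CD14, and ITIH4 belongs to the heavy chain family of the inter-alpha-trypsin inhibitors.

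Libraries held 46613302 to 76860251 counted reads, and levels are given in CPM, that is, reads scaled to equal library totals. Only SAA4, ORM1, ORM2, SERPINA1 and SERPINA3 reached 1 CPM in at least 2 libraries and were tested. The other 5 genes, CRP, SAA1, SAA2, LBP and ITIH4, are described by their reads. A gene was called changed when its adjusted p from limma (Benjamini-Hochberg) was under 0.05 and its log2 fold change, on the scale of CPM + 1, was at least 0.58 in size. All 12 hepatocyte markers were present, with a summed level of 10492 to 15939.8 CPM in Huh7 and 17392 to 21773 CPM in Hep3B parental libraries. Their sum was 106 to 425 CPM with IR and 1335 to 2742 CPM with CR in Huh7, and 2466 to 8476 CPM with IR and 999 to 1825 CPM with CR in Hep3B. The part of this loss of hepatocyte transcripts in the results was not tested, and in bulk RNA fewer cells of a hepatocyte type and less RNA per cell cannot be told apart.

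SAA4 was reduced to a few reads in resistant cells. In Huh7, SAA4 stood at 16.4 and 45.6 CPM in parental and at 27.5 and 37.3 CPM in DMSO cells, against 0.0663 and 0.0429 CPM in IR and 0.0155 and 0.0131 CPM in CR cells. The resistant libraries were far below all parental and DMSO libraries and held 1 to 4 reads each. The log2 fold change against parental cells was -4.75 (SE 0.34, adjusted p = 4.96e-07) with IR and -4.81 (SE 0.34, adjusted p = 7.15e-07) with CR cells. By reads scaled to depth, the parental level was 2230 times that of Huh7-CR cells, with a counting interval of 617 to 18419, since only 2 reads were left.

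Hep3B cells had little SAA4 to lose. Parental Hep3B libraries gave 0.727 and 0.760 CPM (54 and 54 reads), DMSO libraries 1.91 and 1.07 CPM, IR libraries 0 and 0.0142 CPM, and both CR libraries 0. The groups did not overlap, and the parental level was at least 31.7-fold higher than the 3 reads over the group that a count of 0 in Hep3B-CR cells allows. Against the single read in Hep3B-IR cells the ratio was 108 (counting interval 18.9 to 4297). A level under 1 CPM cannot fall far on the CPM + 1 scale. The log2 fold changes there were -0.79 (adjusted p = 0.0989) in IR and -0.80 (adjusted p = 0.0830) in CR cells. Both reached the size needed for a call, but neither was called because of its adjusted p. Their SE of 0.34 came from the model of all 8 groups. On this scale the standard deviation of SAA4 was 1.01 in Huh7 parental libraries. It was 0.019 in Hep3B parental, 0.014 in Hep3B-IR and 0 in Hep3B-CR libraries. On the recovered reads, edgeR called SAA4 lower in both resistant Hep3B lines, with -6.47 (adjusted p = 0.000477) in IR and -8.70 (adjusted p = 0.000354) in CR cells.

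SAA4 lies at chr11:18252902-18258349 on the minus strand (GRCh37) and has 4 exons. The readthrough gene SAA2-SAA4 spans it, and 72.8% of the 75-base windows of the SAA4 transcript also occur there. The row of SAA2-SAA4 (1127 and 3375 reads in Huh7 parental cells) thus largely repeated the reads of SAA4 (1126 and 3406 reads). The SAA4 promoter is shown because it holds more matches to the searched motifs than that of any other member with an entry. The window runs from 250 bases before to 50 bases after the start and is credited to RefSeq on GRCh38.p14 (chr11:18236753-18237052, minus strand). Capitals mark matches on either strand to the C/EBP motif TTGCNNAA.
SAA4: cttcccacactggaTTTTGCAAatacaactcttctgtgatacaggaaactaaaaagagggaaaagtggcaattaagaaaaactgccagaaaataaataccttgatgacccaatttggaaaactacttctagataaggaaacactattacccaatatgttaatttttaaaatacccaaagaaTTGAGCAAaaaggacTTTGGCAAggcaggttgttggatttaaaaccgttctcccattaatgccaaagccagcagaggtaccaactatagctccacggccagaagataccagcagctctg
The 3 matches to the C/EBP motif are at positions -236, -69 and -54 from the start site. Among 27305 promoters of the same length, 10.6% hold TTGCNNAA.

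The orosomucoids ORM1 and ORM2 fell in all 4 resistant lines. ORM1 was at 48.9 and 61.0 CPM in Huh7 parental, 0.613 and 2.98 CPM in Huh7-IR and 6.34 and 9.62 CPM in Huh7-CR cells. In Hep3B it was at 125 and 190.3 CPM in parental, 14.6 and 35.6 CPM in IR and 44.5 and 63.5 CPM in CR cells. Every resistant library lay below both parental libraries of its line. In Huh7 the log2 fold changes of ORM1 were -4.46 (SE 0.43, adjusted p = 5.13e-06) with IR and -2.66 (adjusted p = 0.000438) with CR. In Hep3B they were -2.70 (adjusted p = 0.000561) with IR and -1.52 (adjusted p = 0.0151) with CR. The call in Hep3B-CR was lost without Hep3B parental replicate 2 (-1.22, adjusted p = 0.125) and without Hep3B-CR replicate 1 (-1.27, adjusted p = 0.108).

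ORM2 moved with ORM1 at a lower level. It gave 19.5 and 24.4 CPM in Huh7 parental, 0.133 and 1.29 CPM in Huh7-IR and 1.96 and 3.42 CPM in Huh7-CR cells. In Hep3B the values were 45.9 and 70.6 CPM in parental, 4.40 and 8.88 CPM in IR and 13.5 and 19.1 CPM in CR cells. Again no resistant library reached a parental one. The log2 fold changes of ORM2 (SE 0.37) were -3.82 (adjusted p = 4.86e-06) and -2.66 (adjusted p = 0.000136) in Huh7, and -2.99 (adjusted p = 9.32e-05) and -1.76 (adjusted p = 0.00266) in Hep3B, for IR and CR in turn.

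ORM1 (chr9:117085378-117088759) and ORM2 (chr9:117092149-117095531) are neighbors on the plus strand of GRCh37 with 6 exons each, and their transcripts are 95.3% identical. Reads were kept only where they mapped to a single place. Of the 75-base windows, 41.4% of those of ORM1 and 41.8% of those of ORM2 also occur in the other gene. Reads that fit both places were dropped rather than shared out, which lowers both levels. Its effect on the ratio of the genes was not tested. Exon 4 differs most, in 18 of 108 coding bases, and is shown because reads over it can tell the genes apart. Capitals mark the bases that differ, and the coordinates in GRCh37 are chr9:117087070-117087177 for ORM1 and chr9:117093847-117093954 for ORM2.
ORM1: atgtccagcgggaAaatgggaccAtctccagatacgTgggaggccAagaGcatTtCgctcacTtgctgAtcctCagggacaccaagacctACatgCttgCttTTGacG
ORM2: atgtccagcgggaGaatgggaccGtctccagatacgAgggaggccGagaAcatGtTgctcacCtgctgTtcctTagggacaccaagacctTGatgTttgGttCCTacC
Exon 1 holds 0 differing coding bases and the other 4 exons hold 1 to 6. ORM1 took 69.8% to 82.2% of the reads of the pair over all 16 libraries (median 73.0%). In Hep3B this share was 72.9% and 73.1% in the parental libraries and 71.1% in both DMSO libraries, against 76.8% to 80.0% in IR and 76.7% to 76.9% in CR libraries. The highest share of all, in Huh7-IR replicate 1, rested on 37 reads of ORM1 and 8 of ORM2, with an exact interval of 67.9% to 92.0%. With the reads of both genes summed, the pair was called lower in all 4 resistant lines, with log2 fold changes of -1.59 (Hep3B-CR) to -4.67 (Huh7-IR).

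The ORM1 promoter is printed because the gene fell in every resistant line. RefSeq gives it at chr9:114322848-114323147 (GRCh38.p14, plus strand). Capitals mark the letters ACGTG, the core of the site that HIF factors bind. The marked stretch CACGTG reads the same on both strands, so it alone gives both overlapping matches, and it lies after the start site. Binding of any factor to it was not tested.
ORM1: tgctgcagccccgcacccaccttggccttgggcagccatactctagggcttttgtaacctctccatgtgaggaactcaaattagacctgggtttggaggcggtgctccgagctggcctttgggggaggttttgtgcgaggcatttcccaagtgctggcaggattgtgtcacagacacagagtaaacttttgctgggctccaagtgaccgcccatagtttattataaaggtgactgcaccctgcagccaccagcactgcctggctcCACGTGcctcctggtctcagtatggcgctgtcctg
The matches start at positions 16 and 17 from the start site. ACGTG occurs in 21.6% of all promoters of this length, and a match is a description of the letters. ORM2, SAA1, SAA2 and LBP had no entry, so 6 members were searched.

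**Figure D1:**
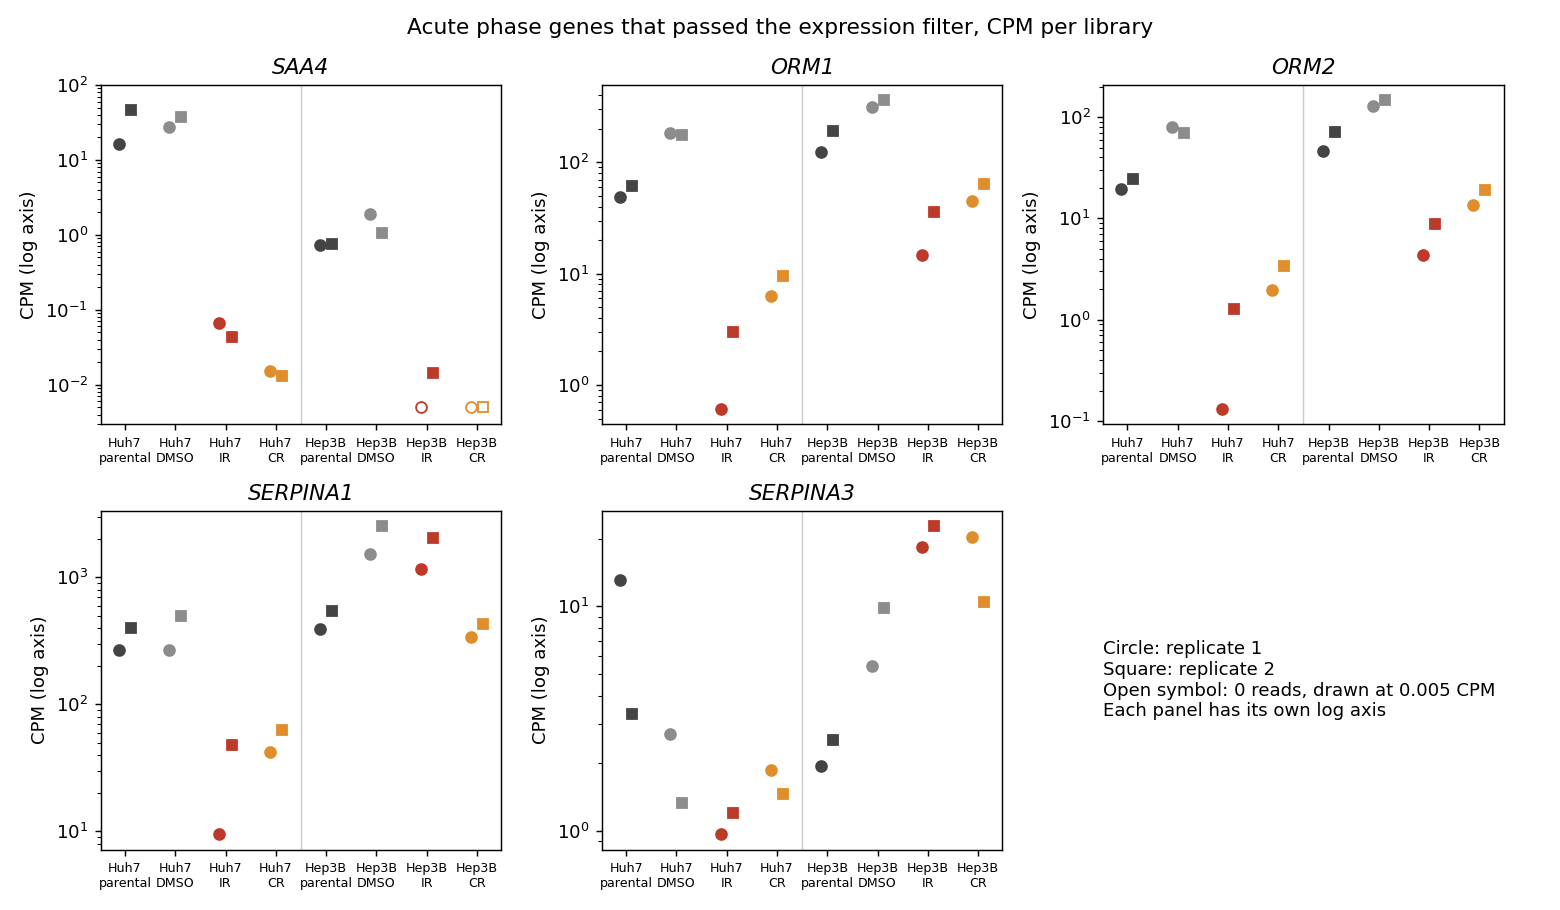
CPM (log axis) of the 5 genes that passed the filter, in each of the 16 libraries, with a circle for replicate 1 and a square for replicate 2 and open symbols for 0 reads. SAA4, ORM1 and ORM2 lie lower in the IR and CR libraries of both lines, while SERPINA1 (1161 and 2052 CPM) and SERPINA3 (18.4 and 22.8 CPM) in Hep3B-IR lie above the parental libraries.

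SERPINA1 encodes alpha-1-antitrypsin, the main plasma inhibitor of neutrophil elastase, and had the highest CPM of the 10 genes in all 16 libraries. In Huh7 it was at 268 and 399.6 CPM in parental, 266 and 492 CPM in DMSO, 9.48 and 48.1 CPM in IR and 42.2 and 62.7 CPM in CR cells. In Hep3B it was at 392 and 547 CPM in parental, 1514 and 2529.8 CPM in DMSO, 1161 and 2052 CPM in IR and 336 and 430.5 CPM in CR cells. Resistant Huh7 libraries thus lay below, Hep3B-IR libraries above, and Hep3B-CR libraries across the range of their parental libraries. In Huh7, SERPINA1 changed by -3.86 on the log2 scale (SE 0.58, adjusted p = 0.000140) with IR and -2.65 (adjusted p = 0.00323) with CR. It rose by 1.73 in Hep3B-IR cells (adjusted p = 0.0375). Its change of -0.28 in Hep3B-CR cells was not called (95% interval -1.54 to 0.98, adjusted p = 0.746).

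The rise of SERPINA1 in Hep3B-IR depended on single libraries and settings. It lost its call when any of the 4 libraries compared was left out (log2 fold changes of 1.32 to 2.15), in edgeR (1.71, adjusted p = 0.0517) and with TMM factors (1.67, adjusted p = 0.0504). Against the DMSO cells, which held more SERPINA1 than parental cells, the change was -0.34 (adjusted p = 0.690). Hep3B-CR cells were lower than DMSO cells by this measure (-2.36, adjusted p = 0.00661).

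SERPINA3 encodes alpha-1-antichymotrypsin, an inhibitor of cathepsin G. Its levels were low in Huh7, with 13 and 3.31 CPM in parental, 2.69 and 1.32 CPM in DMSO, 0.962 and 1.20 CPM in IR and 1.85 and 1.45 CPM in CR cells. In Hep3B they were 1.94 and 2.53 CPM in parental, 5.41 and 9.77 CPM in DMSO, 18.4 and 22.8 CPM in IR and 20.3 and 10.4 CPM in CR cells. All 4 resistant Hep3B libraries were above both DMSO and both parental libraries, whereas in Huh7 the CR libraries lay within the range of the DMSO libraries. SERPINA3 rose by 2.74 on the log2 scale in Hep3B-IR (SE 0.47, adjusted p = 0.000966) and by 2.28 in Hep3B-CR cells (adjusted p = 0.00264), and with each library left out in turn these values ran over 2.59 to 2.88 and 1.83 to 2.73. Against DMSO cells the rise was 1.37 with IR (adjusted p = 0.0375), and the value of 0.91 with CR was not called (adjusted p = 0.149). Without the expression filter the call with IR against DMSO cells was lost (1.37, adjusted p = 0.0840).

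The lower SERPINA3 of resistant Huh7 cells rested on parental replicate 1. With all libraries the log2 fold change was -1.90 (adjusted p = 0.00437) with IR and -1.56 (adjusted p = 0.0197) with CR. Without that library it was -1.05 (adjusted p = 0.0548) and -0.70 (adjusted p = 0.226), and against DMSO cells -0.49 (adjusted p = 0.400) and -0.15 (adjusted p = 0.834), so that no call was left. With CR the call was also lost without either CR library (adjusted p = 0.0643 without replicate 1 and adjusted p = 0.0933 without replicate 2).

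SERPINA1 (chr14:94843084-94857030, minus strand) and SERPINA3 (chr14:95078721-95090392, plus strand) lie in the serpin cluster of chromosome 14 on GRCh37, and an unnamed gene of the GENCODE annotation overlaps the whole SERPINA3 transcript. Their promoters are shown as those of the members that were higher in Hep3B-IR and lower in Huh7-IR cells, from RefSeq on GRCh38.p14, at chr14:94390586-94390885 (minus strand) and chr14:94612141-94612440 (plus strand). None of the 4 searched motifs was found in these windows, so neither sequence carries capitals. Each window surrounds a single annotated start, and which start sites Huh7 and Hep3B cells use was not examined. The absence of matches therefore holds for these windows only.
SERPINA1: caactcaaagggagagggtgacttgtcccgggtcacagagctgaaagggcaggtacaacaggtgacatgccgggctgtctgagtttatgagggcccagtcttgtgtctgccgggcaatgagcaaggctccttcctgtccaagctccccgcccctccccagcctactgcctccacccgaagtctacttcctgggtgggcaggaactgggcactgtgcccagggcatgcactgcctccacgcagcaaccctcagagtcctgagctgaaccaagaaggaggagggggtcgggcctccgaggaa
SERPINA3: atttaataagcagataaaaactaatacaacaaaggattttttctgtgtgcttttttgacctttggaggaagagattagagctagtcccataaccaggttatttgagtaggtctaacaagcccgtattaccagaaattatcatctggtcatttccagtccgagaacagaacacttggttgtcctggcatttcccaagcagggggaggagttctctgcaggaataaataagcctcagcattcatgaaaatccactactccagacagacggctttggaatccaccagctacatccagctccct
The IL6 response element CTGGGAA was found in 1 of the 6 members with an entry, ITIH4, against 11% of all promoters. The NF-kB motif was found in 0 of 6 against 1.92% of all promoters.

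Other genes of the chromosome 14 serpin cluster were compared with this pair. Of 9 listed, 4 were tested, and 4 were called lower with IR and 4 with CR in Huh7. Of all genes tested, 17.8% and 13.6% were called lower there. In Hep3B-IR cells SERPINA4 (kallistatin) rose by 2.34 (adjusted p = 8.29e-05), from 0.390 and 0.520 CPM to 7.65 and 5.26 CPM, and its change of 0.08 in Hep3B-CR cells was not called. Against DMSO cells SERPINA4 was higher with IR (0.91) and lower with CR (-1.35). SERPINA10, the protein Z-dependent protease inhibitor, fell in all 4 resistant lines, by 1.75 to 2.36 on the log2 scale. SERPINA5, the protein C inhibitor, changed by -3.74 and -2.19 in Huh7 (IR and CR, both called) and by 0.02 and -0.37 in Hep3B (neither called), where it was called lower against DMSO cells (-1.59 and -1.99). SERPINA6, which carries cortisol in plasma, changed by -3.46 and -3.44 in Huh7 and by -1.64 in Hep3B-CR cells, all called.

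Counted together, 5 of the 5 tested members were called lower with IR and 5 with CR in Huh7, where 17.8% and 13.6% of the 15019 genes tested were called lower and 31.1% and 20.9% higher. In Hep3B, 2 were lower and 2 higher with IR (11.4% and 15.7% of all genes tested) and 2 lower and 1 higher with CR (12.3% and 20.0%). SAA4 passed the filter only through Huh7 parental and DMSO and Hep3B DMSO cells, so these counts describe the members that passed and support no statement on the list. Under other scalings the share of all calls that were higher fell, with IR in Huh7 from 63.6% to between 49.8% (quantile) and 54.0% (edgeR). With quantile normalization it fell from 60.6% to 49.3% with CR in Huh7, and in Hep3B from 57.9% to 47.7% (IR) and from 61.9% to 49.2% (CR). With edgeR these shares were 53.4% (Huh7-CR), 53.1% (Hep3B-IR) and 53.8% (Hep3B-CR).

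**Figure D2:**
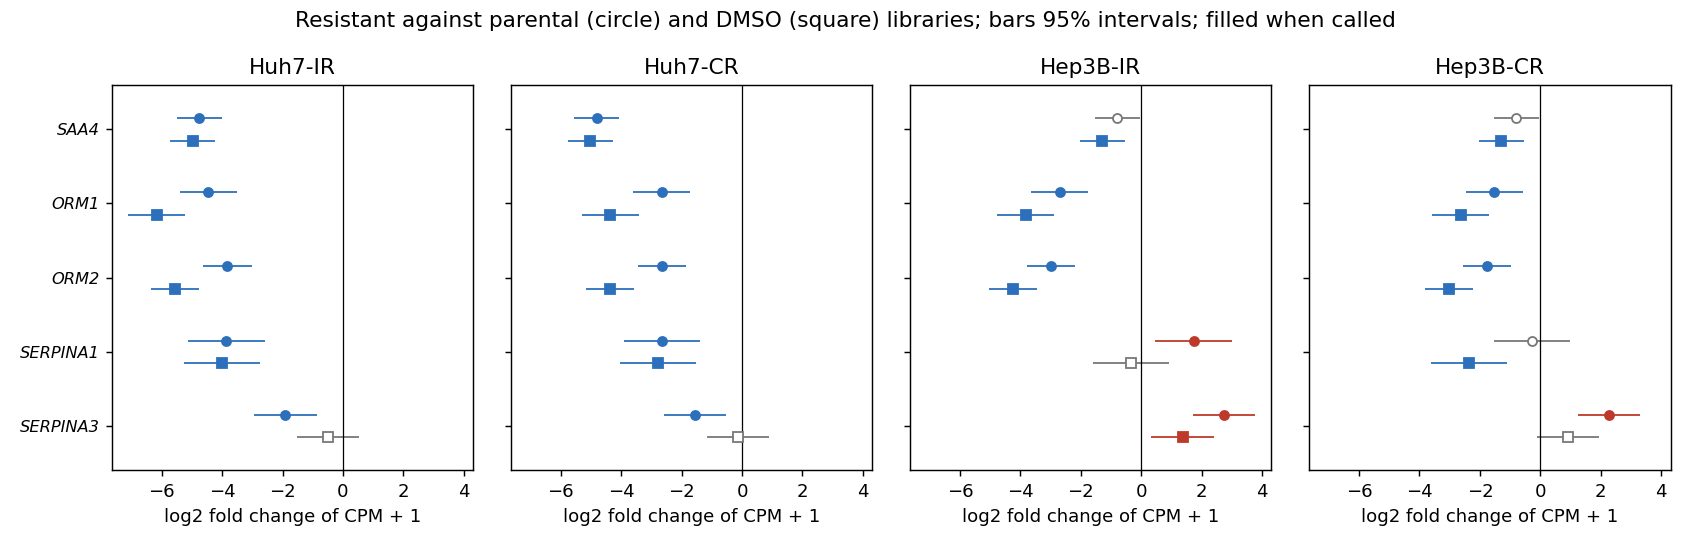
Log2 fold change of CPM + 1 of the 5 tested genes in each resistant line, against parental cells (circle) and against DMSO cells (square), with bars for 95% intervals and filled symbols for calls (blue lower, red higher). SAA4, ORM1 and ORM2 lie left of 0 throughout, while SERPINA1 in Hep3B-IR changes from 1.73 against parental to -0.34 against DMSO cells.

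The DMSO cells served as a further control, and some acute phase genes were higher in them than in parental cells. The summed level of the 12 hepatocyte markers was higher as well. It was 22558 to 27519 CPM in Huh7 DMSO libraries, against 10492 to 15939.8 CPM in parental ones. In Hep3B it was 31054 to 36592 CPM in DMSO and 17392 to 21773 CPM in parental libraries. The part of this difference in the results was not tested. In Huh7, ORM1 reached 184 and 176 CPM and ORM2 79.3 and 69.5 CPM, above both parental libraries. They were called higher, by 1.70 (adjusted p = 0.0427) and 1.72 (adjusted p = 0.0239), where 3.46% of all genes were. Neither was called by edgeR or without filter. In Hep3B DMSO cells ORM1 stood at 315 and 359.9 CPM and ORM2 at 128 and 146 CPM, also above the parental libraries. Here limma called 0 of the 5 members, where it called 1.58% of all genes. At an unadjusted p under 0.05 in limma, 4 passed (8.06% of all genes). Of the members, edgeR called 0 and DESeq2 called 2. The shares of all genes that edgeR and DESeq2 called were not worked out, so their counts have no background. Against the DMSO cells, 4 of 5 members were called lower in Huh7-IR (18.7% of all genes), Huh7-CR (15.9%) and Hep3B-CR cells (13.4%). In Hep3B-IR cells 3 were called lower (14.8%) and 1 higher (17.3%). These counts include SAA4, which passed the filter only through Huh7 parental and DMSO and Hep3B DMSO cells. They therefore support no statement on the list. SAA4, ORM1 and ORM2 were lower in all 4 resistant lines by this comparison, with SAA4 in Hep3B at -1.29 (adjusted p = 0.0106, IR) and -1.30 (adjusted p = 0.00991, CR). In Huh7 DMSO cells the share of all calls that were higher was 71.6%, against 69.95% (edgeR), 70.05% (DESeq2), 62.8% (TMM) and 56.3% (quantile). In Hep3B DMSO cells it was 67.5%, against 64.8% (TMM), 58.6% (DESeq2), 52.0% (quantile) and 46.8% (edgeR).

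The manner of selection was compared next. Huh7-IR cells held less ORM1 (-1.80, adjusted p = 0.0177) and ORM2 (-1.17, adjusted p = 0.0493) than Huh7-CR cells, where 5.43% of all genes were called lower. Hep3B-IR cells held less ORM2 (-1.23, adjusted p = 0.0452) and more SERPINA1 (2.02, adjusted p = 0.0387) than Hep3B-CR cells (6.41% of all genes lower and 5.33% higher). These counts of 2 depended on single libraries. In Huh7 the count was 0 without IR replicate 1 or CR replicate 2, and 1 without CR replicate 1. In Hep3B it was 0 without Hep3B-IR replicate 1 or either CR library. The call of SERPINA1 between Hep3B-IR and Hep3B-CR was lost when any of the 4 libraries compared was left out (log2 fold changes of 1.61 to 2.43). For SAA4 the difference was 0.06 in Huh7 (95% interval -0.69 to 0.80) and 0.01 in Hep3B (-0.73 to 0.76), with both groups near 0 reads.

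The lines also differed in the members they expressed without drug. Hep3B parental cells held less SAA4 (-4.03, adjusted p = 1.27e-06) and SERPINA3 (-1.27, adjusted p = 0.0407) and more ORM1 (1.48, adjusted p = 0.0125) and ORM2 (1.35, adjusted p = 0.00874) than Huh7 parental cells. In this comparison 18.9% of all genes were called lower and 23.7% higher. SAA4 passed the filter only through Huh7 parental and DMSO and Hep3B DMSO cells, so the count of these calls supports no statement on the list. SERPINA1 differed by 0.50 (95% interval -0.76 to 1.76) and was not called. The count of 4 fell to 1 without Huh7 parental replicate 1 or without Hep3B parental replicate 2. Per kilobase of exon, mean levels in Huh7 parental cells were 111 CPM for SERPINA1, 71.9 for ORM1, 49.2 for SAA4, 28.9 for ORM2 and 5.19 for SERPINA3. In Hep3B parental cells they were 206 CPM per kilobase for ORM1, 156 for SERPINA1, 76.8 for ORM2, 1.42 for SERPINA3 and 1.18 for SAA4. The order of neighbors such as ORM1 and SERPINA1 was not tested.

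The difference between the lines in the response itself was tested by subtracting the mean of the IR and CR changes in Huh7 from that in Hep3B. It was 4.24 for SERPINA3 (SE 0.58, adjusted p = 0.000224), 3.98 for SERPINA1 (SE 0.71, adjusted p = 0.00132) and 3.99 for SAA4 (SE 0.42, adjusted p = 3.25e-05), and 13.1% of all genes were called in this direction. It was 1.45 for ORM1 (95% interval 0.30 to 2.60, adjusted p = 0.0545) and 0.87 for ORM2 (-0.11 to 1.84, adjusted p = 0.166), neither of which was called. The value of SAA4 is bounded by its low level in Hep3B parental cells and was not called on the recovered reads (adjusted p = 0.965 in edgeR, adjusted p = 0.0902 in DESeq2). With DMSO in place of parental cells, 4 were called (15.5% of all genes), SAA4 (3.71), ORM1 (2.03, adjusted p = 0.0110), ORM2 (1.34, adjusted p = 0.0369) and SERPINA1 (2.04, adjusted p = 0.0426), and SERPINA3 was not (1.46, adjusted p = 0.0713). With either reference the count includes SAA4, which passed the filter only through Huh7 parental and DMSO and Hep3B DMSO cells, and supports no statement on the list.

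The most inducible members were hardly expressed. CRP, the classical C-reactive protein, had 0 or 1 read in each of the 8 Huh7 libraries. In Hep3B it had 5 and 0 reads in parental, 2 and 13 in DMSO, 11 and 177 in IR and 0 and 0 in CR libraries. The 177 reads, or 2.52 CPM, came from Hep3B-IR replicate 2 alone, and replicate 1 had 0.147 CPM, so that the parental and IR means differed by less than the range of the IR libraries. Without the expression filter, the log2 fold change of CRP in Hep3B-IR cells was 0.96 (95% interval 0.14 to 1.78, adjusted p = 0.0991) and was not called.

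SAA1 and SAA2 were seen in traces. SAA1 had 1 to 8 reads in the Huh7 and 0 or 1 read in the Hep3B libraries. SAA2 had 15 and 23 reads in Huh7 parental, 29 and 28 in DMSO, 19 and 13 in IR and 3 and 22 in CR libraries, and 0 or 1 read in Hep3B. The resistant and parental groups of Huh7 overlapped for SAA2. SAA1 shares 26.4% and SAA2 39.0% of its 75-base windows with another gene. Of the 196 shared windows of SAA2, 195 occur in the readthrough gene SAA2-SAA4, which overlaps it at the same place, and 118 in SAA1. Reads that mapped to several places were not kept.

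LBP gave 0 reads in both Huh7 parental libraries and 1 to 9 in the other 14. ITIH4 had 15 and 17 reads in Huh7 parental, 35 and 42 in DMSO, 41 and 35 in IR and 26 and 53 in CR libraries, so that the parental libraries were the lowest of this line. In Hep3B, ITIH4 had 11 and 5 reads in parental, 27 and 33 in DMSO, 3 and 8 in IR and 7 and 1 in CR libraries. Without filter its log2 fold change in Huh7 was 0.49 with IR (adjusted p = 0.00118) and 0.33 with CR (adjusted p = 0.0148), under the size needed for a call. The antisense gene ITIH4-AS1 and an unnamed gene of the GENCODE annotation overlap it (81.3% of its 75-base windows occur in another gene), and the strand setting of the counting is not given in the sources used here.

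**Figure D3:**
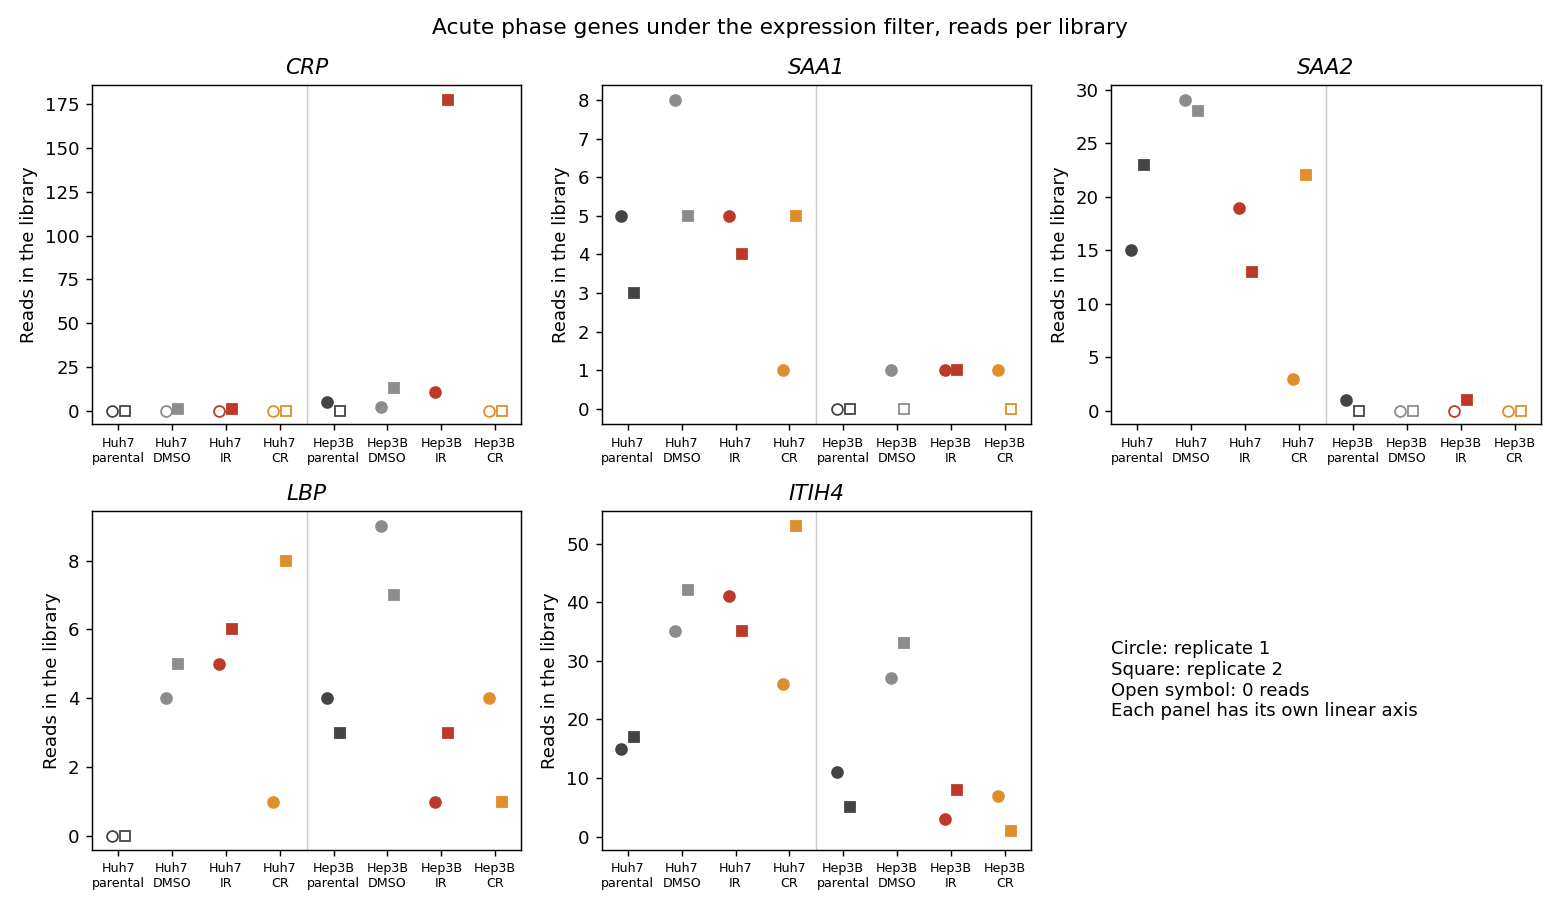
Reads per library (linear axis, own scale in each panel) of the 5 genes below the expression filter, with a circle for replicate 1 and a square for replicate 2 and open symbols for 0 reads. CRP has 177 reads in Hep3B-IR replicate 2 and at most 13 in any other library, SAA1 and SAA2 appear mainly in Huh7, and ITIH4 is lowest in Huh7 in the parental libraries.

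Other acute phase proteins gave a frame for these changes. Counts and changes of the following genes are against parental cells, and calls that were lost or gained against DMSO cells are given for the genes named. Of 20 further positive acute phase genes, 17 were tested. In Huh7, where 17.8% and 13.6% of all genes were called lower and 31.1% and 20.9% higher, 9 were called lower and 2 higher with IR and 6 lower and 2 higher with CR (median log2 fold changes -1.48 and -0.75, against 0.19 and 0.07 over all genes). In Hep3B, 7 were called lower with IR (11.4% of all genes) and 9 with CR (12.3%) and 0 higher in either, where 15.7% and 20.0% of all genes were (medians -1.53 and -1.79, against 0.06 and 0.11). The fibrinogen chain gene FGA fell in all 4 resistant lines, from 1244 and 933 CPM in Huh7 parental to 11.1 and 81.4 CPM in Huh7-IR cells (-5.09, adjusted p = 6.54e-05). FGB fell in Huh7-IR (-5.60), Huh7-CR (-4.13) and Hep3B-CR cells (-4.45) and was not called in Hep3B-IR (-2.18, adjusted p = 0.0661). Haptoglobin (HP) was called lower in Huh7-IR cells (-1.12, adjusted p = 0.0230) and in no other resistant line, while against DMSO cells it was lower in Hep3B too (-1.12 and -1.19). The 2 genes that rose were complement factor B (CFB), by 3.31 (IR) and 2.52 (CR) in Huh7, and the pantetheinase gene VNN1, by 2.02 and 2.83. CFB was also higher in DMSO than in parental cells of both lines (2.61 and 2.82). Against DMSO cells CFB was not called in Huh7 (0.71 with IR and -0.08 with CR) and was lower in Hep3B (-1.50 and -2.78).

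Negative acute phase proteins, whose plasma level falls in inflammation, fell as well. All 14 listed were tested. In Huh7 10 were called lower with IR and 9 with CR, in Hep3B 7 and 10, and 0 higher. Of all genes, 17.8%, 13.6%, 11.4% and 12.3% were called lower in these comparisons and 31.1%, 20.9%, 15.7% and 20.0% higher. Median log2 fold changes of the list were -4.04 and -3.53 in Huh7 and -1.34 and -1.80 in Hep3B. Transferrin (TF) went from 556 and 1109.9 CPM in Huh7 parental to 6.13 and 5.81 CPM in Huh7-IR cells (-6.82, adjusted p = 0.000111). The fetuin gene AHSG fell in all 4 lines, by 3.99 to 4.69 on the log2 scale. Albumin (ALB) fell in Huh7-IR (-4.85), Hep3B-IR (-2.06) and Hep3B-CR cells (-4.18), while its change of -1.17 in Huh7-CR was not called. Transthyretin (TTR) was not called against parental cells in any resistant line (-1.71 to 0.34). F12 (coagulation factor XII) was called lower in Huh7-IR and Huh7-CR (-0.63 and -0.66) and not in resistant Hep3B cells, and ITIH1 was not called in any (-0.34 to 0.26). Against DMSO cells more of these genes were called lower, namely ALB in Huh7-CR (-2.80), TTR in Huh7-IR (-3.80), Huh7-CR (-4.07) and Hep3B-CR (-2.82), TF in Hep3B-IR (-4.28), F12 in both resistant Hep3B lines (-1.35 and -1.48) and ITIH1 in Hep3B-CR cells (-2.10).

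The cytokines that induce the response were examined next. Of 12 ligands 5 were tested, and 3 were called higher in each resistant line, where 31.1%, 20.9%, 15.7% and 20.0% of all genes were. In each of Huh7-IR and Huh7-CR 1 was called lower, where 17.8% and 13.6% of all genes were. LIF, an IL6-type cytokine that signals through gp130, rose in all 4. In Huh7 it went from 3.0 and 2.48 CPM to 39.0 and 52.9 CPM with IR and 53.1 and 48.2 CPM with CR (3.64 and 3.79), and in Hep3B from 10.6 and 6.82 CPM to 40.0 and 41.0 CPM and 48.9 and 34.4 CPM (2.12 and 2.14). IL11 was called higher in Hep3B (2.39 and 3.66) and not in Huh7, and CLCF1 (1.73 and 1.58) and IL1B (1.33 and 1.18) in Huh7 and not in Hep3B. IL18 was called higher in Hep3B (3.74 with IR and 3.11 with CR) and lower in Huh7 (-1.16 and -1.35). Against DMSO cells IL18 was not called in Huh7 (-0.46 and -0.66). IL6 itself did not pass the filter, with at most 2.11 CPM, in Huh7-IR replicate 1.

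Receptors changed in both directions. Of 10 tested receptor genes, 5 were called higher and 5 lower with IR and 3 and 2 with CR in Huh7, against 3 and 1 with IR and 4 and 2 with CR in Hep3B. Of all genes tested, 31.1% were called higher and 17.8% lower with IR and 20.9% and 13.6% with CR in Huh7, and 15.7% and 11.4% with IR and 20.0% and 12.3% with CR in Hep3B. The IL6 receptor gene IL6R was called higher than in parental cells in Huh7-IR (1.34) and Hep3B-CR cells (1.27), but against DMSO cells neither was called (-0.07 and 1.00). The gene of gp130 (IL6ST) rose in Huh7-IR (0.68), Huh7-CR (0.76) and Hep3B-IR cells (0.76). The oncostatin M receptor gene OSMR rose in all 4 (0.98 to 1.35), in Hep3B from 0.0404 and 0.197 CPM to 1.36 and 1.04 CPM with IR and 1.39 and 2.38 CPM with CR. The IL1 receptor subunit gene IL1RAP fell in Huh7 (-1.59 with IR and -1.83 with CR) and was higher in Hep3B-IR than in DMSO cells (1.38), and IL1R1 fell in Huh7-IR (-1.80) and Hep3B-CR cells (-1.73).

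Of 18 tested transducers, 7 were called higher (IR) and 3 (CR) in Huh7 with 0 lower, and 3 (IR) and 5 (CR) in Hep3B with 1 lower in each. These counts stand beside 31.1%, 20.9%, 15.7% and 20.0% of all genes called higher in the same 4 comparisons, and 17.8%, 13.6%, 11.4% and 12.3% called lower. SOCS3, the feedback inhibitor that STAT3 induces, rose in all 4, by 2.38 and 2.29 in Huh7 and 1.13 and 1.41 in Hep3B, from 1.95 and 0.281 CPM in Huh7 parental to 6.66 and 12.4 CPM in Huh7-IR cells. STAT3 was called higher in Huh7-IR (0.73), and its other values, 0.42 to 0.54, stayed under 0.58, while against DMSO cells it was also called in Huh7-CR (0.65). JAK2 rose in Huh7-IR (1.46), Huh7-CR (0.68) and Hep3B-CR cells (1.04). The adaptor gene MYD88 fell in Hep3B (-1.01 with IR and -0.90 with CR). Against DMSO cells the call with CR was lost (-0.50), and MYD88 was higher in Huh7-IR (0.59) and Huh7-CR cells (0.77). The kinase gene CHUK was not called in any resistant line (-0.37 to 0.11).

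Among the transcription factors, members of the C/EBP family moved in opposite directions. CEBPA, the main form of resting hepatocytes, fell from 109 and 149 CPM in Huh7 parental to 3.5 and 7.08 CPM in Huh7-IR and 2.32 and 4.67 CPM in Huh7-CR cells (-4.42 and -4.89), and also in Hep3B (-1.43 with IR and -1.27 with CR). CEBPB, a form induced in the acute phase, rose by 2.30 and 1.80 in Huh7 and 1.88 and 2.47 in Hep3B, with 4.93 and 3.59 CPM in Huh7 parental and 29.3 and 20.7 CPM in Huh7-IR cells. CEBPD was not called in any (-0.90 to -0.23), and CEBPG rose in Huh7-IR (0.98), Huh7-CR (0.68) and Hep3B-CR cells (0.74), of which the first pair was not called against DMSO cells (0.53 and 0.22). HNF4A fell in Huh7 (-2.45 with IR and -1.28 with CR) and was not called in Hep3B (-0.08 and -0.73). NR5A2 fell in Huh7-IR (-4.40), Huh7-CR (-2.42) and Hep3B-CR cells (-1.45). In all, of 15 liver factors, 9 were called lower and 2 higher with IR and 8 and 2 with CR in Huh7, against 4 and 1 with IR and 6 and 3 with CR in Hep3B. The shares of all genes called lower were 17.8% and 13.6% in Huh7 and 11.4% and 12.3% in Hep3B. Those called higher were 31.1% and 20.9% in Huh7 and 15.7% and 20.0% in Hep3B.

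Of 10 tested NF-kB genes, 6 were called higher and 2 lower with IR and 3 and 2 with CR in Huh7, and 2 and 3 in Hep3B-CR, where 31.1%, 20.9% and 20.0% of all genes were called higher and 17.8%, 13.6% and 12.3% lower. In Hep3B-IR the values against parental cells ran from -0.52 (NFKBIZ) to 0.57 (TNFAIP3) and were not called, and against DMSO cells limma called RELA (-0.93) and NFKBIA (-0.61) lower. RELB rose in Huh7-IR (2.20), Huh7-CR (1.40) and Hep3B-CR cells (0.98), and NFKB2 in Huh7 (1.55 with IR and 1.19 with CR). NFKB1 fell in Huh7 (-1.32 and -0.83). NFKBIZ, whose product promotes a subset of NF-kB targets, fell in Huh7-IR (-1.11), Huh7-CR (-1.43) and Hep3B-CR cells (-2.23). Of these calls, those of RELB in Hep3B-CR (0.51), NFKB1 in Huh7-CR (-0.53) and NFKBIZ in Huh7-IR cells (-0.90) were lost against DMSO cells.

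**Figure D4:**
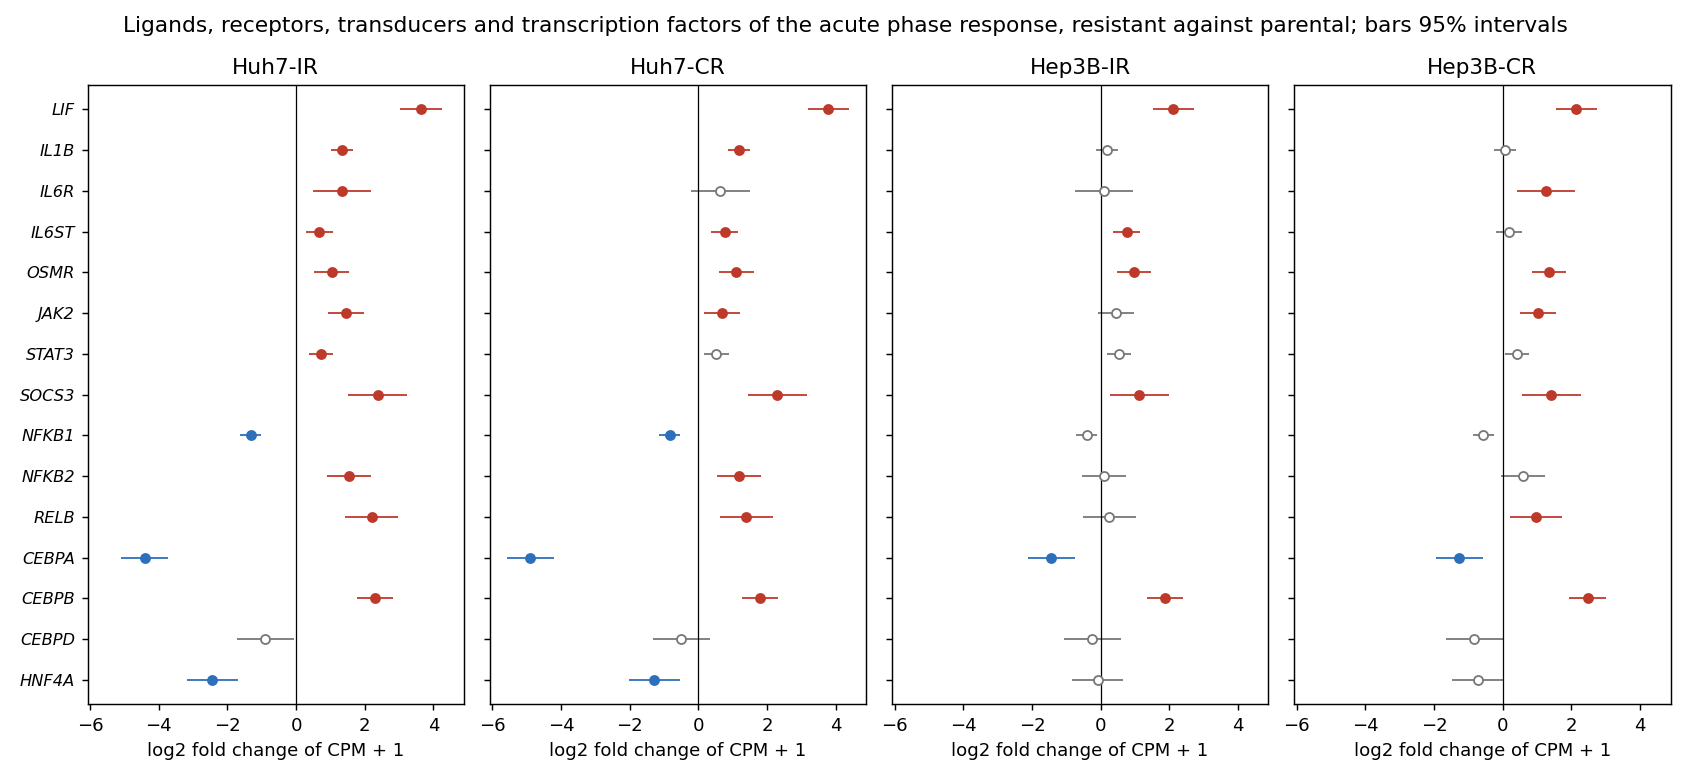
Log2 fold change of CPM + 1 of 15 ligands, receptors, transducers and transcription factors in each resistant line against parental cells, with bars for 95% intervals and filled symbols for calls (blue lower, red higher). LIF, OSMR, SOCS3 and CEBPB lie right of 0 and CEBPA left of 0 in all 4 lines, with CEBPA at -4.42 and -4.89 in Huh7-IR and Huh7-CR.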

How the data were processed

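Poly-A RNA of 16 libraries was sequenced (75 cycles, per the labels). The authors mapped reads to hg19 with STAR, keeping unique hits, counted them over RefSeq exons with QuasR and deposited CPM, reads scaled by library total. Every value came out as a whole number of reads within 0.05 reads (100% of values), so reads were recovered. Of 26258 gene IDs, 26111 matched a RefSeq symbol, and 0 columns were unused. log2(CPM + 1) of the 15019 genes reaching 1 CPM in 2 or more libraries was fitted with limma 3.58.1 (R 4.3.3, trend) in a model of all 8 groups. P-values were BH-adjusted over all genes. The script was tested on simulated data. Also run were DESeq2 1.42.0 and the quasi-likelihood test of edgeR 4.0.16 on the reads, TMM, quantile normalization, pseudocounts of 0.25 and 4 CPM, no filter (23311 genes), a 5 CPM filter, a replicate block, fits on the groups compared or the line only, DMSO as reference, unadjusted p, summed paralogs and each library left out.

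The members, lists and tests were chosen with earlier results of these data known, and the motifs after the data were seen. Beside the members, the text names the 8 regulators IL6R, IL6ST, STAT3, SOCS3, CEBPA, CEBPB, CEBPD and HNF4A (1 other is not reported here), the reference genes ALB, TTR, HP and FGB, neighbors sharing reads or position with a member, and per list the 2 highest and 2 lowest tested genes by mean change over the resistant lines, plus the 3 genes most correlated with CRP, SAA1 and SERPINA1 (those of SAA1, which had few reads, are not given). IL18 was added as the remaining tested ligand. The lists were written by hand. Intervals of counts and shares are exact, at 95%, and cover counting error only. The paper's methods state biological triplicates, 81-mers and a total RNA kit, whereas the labels give 2 replicates per group and a poly(A) kit.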

Additional observations from a re-analysis of the deposited data

Results flagged for a closer look

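For 3 members the change in resistant cells differed between the lines by the limma test of the difference itself, the mean of the IR and CR changes in Hep3B minus that in Huh7. SERPINA3 differed by 4.24 on the log2 scale (adjusted p = 0.000224), with 4 of 4 resistant Hep3B libraries above and 4 of 4 resistant Huh7 libraries below their parental libraries. Huh7 parental replicates 1 and 2 were at 13 and 3.31 CPM, and with each library left out in turn the difference ran over 3.38 to 5.09. With DMSO cells as reference it was 1.46 and was not called (adjusted p = 0.0713). SERPINA1 differed by 3.98 (adjusted p = 0.00132), with a range of 3.42 to 4.53 when libraries were left out and 2.04 with DMSO cells as reference. SAA4 differed by 3.99 (adjusted p = 3.25e-05), on a scale on which Hep3B parental cells at 0.727 and 0.760 CPM had little room to fall, and in edgeR the difference was 2.58 (adjusted p = 0.965). With 2 libraries per group, no group was large enough to look for single deviating values.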

How the results depend on the processing

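The counts of called members in the 4 resistant lines (5, 5, 4 and 3 against parental cells) stayed within 1.5 times under every alternative run, with 4 to 5, 4 to 5, 3 and 2 to 3 when libraries were left out. Such totals do not show which genes were called or in which direction. With DMSO cells as reference, SERPINA1 lost its call in Hep3B-IR (-0.34) and SERPINA3 in Hep3B-CR cells (0.91). SAA4 was then called lower in both (-1.29 and -1.30), and SERPINA1 in Hep3B-CR cells (-2.36). Counts in the smaller contrasts moved. For Huh7 DMSO cells the count of 2 became 0 with edgeR, a pseudocount of 0.25 CPM, no filter, the groups compared or the line only and summed paralogs, and 1 with DESeq2, TMM and quantile normalization, and it ran from 0 to 3 with libraries left out. For Hep3B DMSO cells the count of 0 became 2 with DESeq2, 1 with a pseudocount of 4 CPM, 1 with the line only and 4 at unadjusted p. For Huh7-IR against Huh7-CR the count of 2 became 1 with edgeR, TMM, a pseudocount of 4 CPM, no filter and summed paralogs, 0 with the groups compared or the line only, and 0 to 3 with libraries left out. For Hep3B-IR against Hep3B-CR the count of 2 became 1 with edgeR, DESeq2, TMM, a pseudocount of 0.25 CPM, the groups compared only and summed paralogs, 0 without filter, and 0 to 2 with libraries left out. Between the parental lines the count of 4 ran from 1 to 4, and for the differing response of Hep3B and Huh7 the count of 3 ran from 3 to 5 (5 without Huh7-IR replicate 2). With summed paralogs ORM1 and ORM2 count as 1 member, so for Huh7-IR against Huh7-CR the count dropped although the pair stayed called lower (-1.91, limma adjusted p = 0.0193). In Huh7 DMSO cells (1.72, adjusted p = 0.0539) and for Hep3B-IR against Hep3B-CR (-1.22, adjusted p = 0.104) the summed pair was not called. The cause of the other shifts was not tested. Signs changed for SAA4 in Huh7 DMSO cells (edgeR -0.012, DESeq2 -0.027, and -0.50 to 0.93 with libraries left out, the lowest without Huh7 parental replicate 1), for SERPINA1 in Huh7 DMSO cells (-0.14 without Huh7 parental replicate 1, and -0.30 to 0.59 with libraries left out, the lowest without Huh7 DMSO replicate 2) and for SERPINA1 in Hep3B-IR cells (-0.34 against DMSO). Of the alternative values of single genes, 754 kept direction and side of the threshold, 82 lost and 43 gained a call and 6 changed sign.

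Replicate numbers are shared by the groups, but the labels tie them to no common culture or day, and same-numbered libraries deviated together with correlations of -0.22 to 0.44. Fitting the replicate number as a block moved the count in Hep3B DMSO cells from 0 to 2 and moved no other count of called members by more than 1.5 times. The main scaling left the median of all genes in Huh7-IR at 0.19 (log2) and in Hep3B-CR at 0.11, against 0.04 and 0.02 with TMM. With 2 libraries per group and 0 to 177 reads for CRP, SAA1, SAA2, LBP and ITIH4, depth limits what can be seen of these genes.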

Other observations

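Relatives and neighbors of the members changed as well, by comparison with parental cells unless DMSO cells are named. Of 9 relatives of CRP, LBP and the orosomucoids, 3 were tested. The long pentraxin gene PTX3, a relative of CRP expressed by many cell types, rose in Huh7-IR cells from 5.18 and 3.0 CPM to 52.6 and 47.7 CPM (3.36, adjusted p = 1.93e-07) and in Huh7-CR cells (3.34, adjusted p = 2.71e-07). PTX3 was lower in Huh7 DMSO cells (0.0828 and 0.215 CPM, log2 fold change -2.12) and in Hep3B-IR cells (-1.17). AKNA rose in Huh7-IR (2.19), Hep3B-IR (1.93) and Hep3B-CR cells (3.12), and CD14, the partner of LBP, was called lower in Huh7-IR cells (-1.21). Against DMSO cells AKNA in Hep3B-IR (0.60) and CD14 in Huh7-IR (-0.95) were not called. Among 6 tested relatives of ITIH4, AMBP, which encodes the light chain bikunin, fell in all 4 resistant lines, from 1079.6 and 1006 CPM in Huh7 parental to 1.24 and 2.21 CPM in Huh7-IR cells (-8.60, adjusted p = 2.25e-09) and by 1.15 and 1.92 with IR and CR in Hep3B. ITIH2 fell in Huh7-IR (-2.04), Huh7-CR (-4.31) and Hep3B-CR cells (-2.93). ITIH5 was called higher in Hep3B-IR cells (0.78), but not against DMSO cells (0.30). Against DMSO cells ITIH2 was lower in Hep3B-IR (-1.50) and ITIH3 in Huh7 (-1.13 with IR and -1.20 with CR), and against parental cells ITIH3 was not called. Next to the SAA genes, LDHA was lower in Huh7-IR (-1.12), Hep3B-IR (-0.97) and Hep3B-CR cells (-0.63), and HPS5 in Hep3B-IR cells (-0.63, but -0.36 and not called against DMSO cells). GTF2H1 was called in Huh7 against DMSO cells only (1.28 and 1.05).

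Markers of liver cell types gave the following values. Of 12 hepatocyte markers, 10 were called lower with IR and 9 with CR in Huh7, 5 and 8 in Hep3B, and 0 higher. Of all genes tested, 17.8%, 13.6%, 11.4% and 12.3% were called lower in these comparisons and 31.1%, 20.9%, 15.7% and 20.0% higher. ALB, APOA1, TTR, TF and AHSG are also on the negative acute phase list. FGB is on the positive list and HNF4A among the liver factors, so these counts are not independent of those lists. AFP stood at -10.22 and TAT at -1.64 in Huh7-IR cells. SERPINC1 was called lower only against DMSO cells, in Huh7-IR (-1.72), Huh7-CR (-1.76) and Hep3B-IR cells (-0.76). The summed level of 8 macrophage markers was 3.76 to 6.66 CPM in Huh7 parental and 47.2 to 72.0 CPM in Huh7-IR libraries. CD68 rose (3.62), while PTPRC fell (-0.93) and CD163, MARCO, VSIG4, AIF1 and TYROBP were below 1 CPM in every library. Of 8 stellate cell markers 6 were tested, and 5 rose with IR and 5 with CR in Huh7. Of all genes tested, 31.1% and 20.9% were called higher there. The 5 included COL1A1 (5.04 and 4.21) and COL1A2 (5.20 and 5.93), whereas LUM fell (-2.90 and -0.87) and THY1 was below 1 CPM throughout. PDGFRB was higher with IR and CR in Huh7 against parental (0.98 and 1.23) but was not called against DMSO cells (0.18 and 0.42). COL1A1 rose in Hep3B as well (4.69 with IR and 5.69 with CR), and PDGFRB fell in Hep3B-IR cells (-1.35). Of 8 endothelial markers, 6 were below 1 CPM in every library, and PECAM1 fell in Huh7 (-1.09 with IR and -0.95 with CR). Of 7 tested cholangiocyte markers, KRT7 rose in Huh7-IR (3.68), Huh7-CR (3.64) and Hep3B-CR cells (1.68) and SPP1 fell in Huh7 (-6.53 and -3.82), while KRT19 was not called against either control. EPCAM was lower in Huh7 against DMSO cells (-1.56 and -1.59) but not against parental cells. The part of these changes in the levels of the acute phase genes was not tested.

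By Pearson's correlation of the mean log2(CPM + 1) over the 8 groups, the genes most like CRP were SUCNR1 (0.991), SLC28A2 (0.976) and PTGER3 (0.976). Those most like SERPINA1 were MDM2 (0.972), TMT1B (0.970) and CNTRL (0.969). Among many genes and 8 points such values are a description, and the pattern of CRP rests on Hep3B-IR replicate 2. SAA1, with at most 8 reads in any library, was left out.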
